A study of Mus musculus with 9 samples.

Results

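The BCL2 family decides, at the outer mitochondrial membrane, whether a cell enters the mitochondrial pathway of apoptosis. The genes described here are 10 of its members. They were chosen by symbol and not by a rule on their measured values, but with earlier results of these data known. They are the pro-survival members *Bcl2*, *Bcl2l1* and *Mcl1*, the pore-forming effectors *Bax* and *Bak1*, and the BH3-only members *Bid*, *Bad*, *Bbc3*, *Pmaip1* and *Bcl2l11*. All 10 were found among the 26858 genes of the count table, and all 10 were among the 14990 genes that passed the filter on low counts and were tested. RNA sequencing (RNA-seq) was carried out on SIX2 progenitors, the cap mesenchyme cells that give rise to the nephron, which had been isolated from kidneys at embryonic age E18.5 by fluorescence-activated cell sorting. Control libraries came from heterozygous *Six2-Qpc*+/− mice (n = 4, replicates 71, 72, 73 and 76) and mutant libraries from *Six2-Qpc*−/− mice (n = 5, replicates 74, 75, 77, 78 and 79). *Qpc* (*Uqcrq*) encodes a subunit of mitochondrial (mt) complex III, and its floxed alleles were deleted by a Cre recombinase fused to eGFP. That fusion protein was expressed from a bacterial artificial chromosome transgene under the *Six2* promoter, was carried by both genotypes and provided the sorting signal. The control therefore also lacked 1 *Qpc* allele, and no library without Cre was compared. Nothing in the labels says which animals or litters the libraries came from, so the p-values measure the spread between these libraries.

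In mutant progenitors the transcripts of 2 BH3-only members, *Bcl2l11* and *Bid*, rose by about 1.6-fold, and that of the pro-survival member *Bcl2l1* fell to 0.721 of its control level. The other 7 members did not pass the test, which 14.8% of all genes tested passed (7.82% higher and 7.02% lower in the mutant). Transcripts of *Bax*, the most abundant member for its length, stood at 169 ± 20.8 counts per 1000000 counts of the library (CPM) in control and 165 ± 16.7 CPM in mutant progenitors (mean ± SD, n = 4 and 5). Of 18 alternative analyses, *Bcl2l11* passed the test in 17, *Bid* in 11 and *Bcl2l1* in 9.

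In healthy cells the pro-survival proteins hold the effectors and the BH3-only proteins in check. BH3-only proteins are made or activated in response to stress, and each binds pro-survival proteins through a short helix, the BH3 domain. When they prevail, BAX and BAK1 form pores in the outer mitochondrial membrane, cytochrome c leaves the intermembrane space, the apoptosome assembles and caspases are activated. In the embryonic kidney, *Bcl2* is known for its requirement in nephron formation, since mice that lack it develop renal hypoplasia with cystic kidneys, and the loss of *Bcl2l11* is known to restore their kidneys. The activity of these proteins is also set by binding, cleavage, phosphorylation and turnover, none of which is measured by transcript counts.

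A feature of the family, the BH3 core, is shown first for 9 of the 10 members. Each line gives the 15 codons around the BH3 core of 1 gene, read on the coding strand from 5′ to 3′, with the codon of the conserved leucine and that of the conserved aspartate in capitals. The sequences come from the GENCODE M21 reference transcripts (GRCm38) and not from the libraries. No sequence is shown for *Pmaip1*, which was not searched. Every coding sequence searched, those of the other 9 members included, held exactly 1 such core (a leucine, any 3 residues, then glycine, alanine or serine, then aspartate). The first 4 lines are BH3-only members, followed by the effectors *Bax* and *Bak1*, the pro-survival members *Bcl2*, *Bcl2l1* and *Mcl1*, and the BH3-only genes *Bik* and *Hrk*, which are outside the 10 members and whose counts are given further on.
Bcl2l11, chr2:128147135-128147179, + strand: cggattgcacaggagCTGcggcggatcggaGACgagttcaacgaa
Bid, chr6:120897286-120897330, - strand: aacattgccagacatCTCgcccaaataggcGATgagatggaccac
Bad, chr19:6950777-6950821, + strand: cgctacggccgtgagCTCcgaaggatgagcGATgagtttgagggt
Bbc3, chr7:16313758-16313802, + strand: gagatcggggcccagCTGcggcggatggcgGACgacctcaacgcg
Bax, chr7:45465994-45466038, - strand: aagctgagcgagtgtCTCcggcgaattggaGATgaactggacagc
Bak1, chr17:27022528-27022572, - strand: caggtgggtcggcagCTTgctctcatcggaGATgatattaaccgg
Bcl2, chr1:106712572-106712616, - strand: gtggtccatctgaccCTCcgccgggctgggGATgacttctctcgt
Bcl2l1, chr2:152829694-152829738, - strand: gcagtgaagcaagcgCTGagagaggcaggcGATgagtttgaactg
Mcl1, chr3:95659421-95659465, + strand: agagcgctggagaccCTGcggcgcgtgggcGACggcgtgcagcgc
Bik, chr15:83543069-83543113, + strand: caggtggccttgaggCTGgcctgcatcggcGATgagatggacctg
Hrk, chr5:118169876-118169920, + strand: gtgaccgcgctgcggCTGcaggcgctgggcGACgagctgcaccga
The search pattern fixes the spacing of the leucine and aspartate codons, while the codons around them differed between the genes. *Bcl2l11*, *Bid* and *Bcl2l1*, the members that changed, thus share the core with members that did not pass the test.

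The upstream sequences of the 3 members that passed the test are shown for the same reason, so that their differences in composition can be seen. Each line is the 250 bases before an annotated RefSeq start site (GRCm38.p6), written 5′ to 3′ on the strand of the gene, with matches to the searched motifs in capitals.
Bcl2l11, chr2:128125788-128126037, + strand: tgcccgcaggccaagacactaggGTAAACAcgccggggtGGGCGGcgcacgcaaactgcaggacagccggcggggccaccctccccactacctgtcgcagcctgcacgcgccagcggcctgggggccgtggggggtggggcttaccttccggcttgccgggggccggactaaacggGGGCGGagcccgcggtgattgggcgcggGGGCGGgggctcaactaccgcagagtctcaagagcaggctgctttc
Bid, chr6:120916825-120917074, - strand: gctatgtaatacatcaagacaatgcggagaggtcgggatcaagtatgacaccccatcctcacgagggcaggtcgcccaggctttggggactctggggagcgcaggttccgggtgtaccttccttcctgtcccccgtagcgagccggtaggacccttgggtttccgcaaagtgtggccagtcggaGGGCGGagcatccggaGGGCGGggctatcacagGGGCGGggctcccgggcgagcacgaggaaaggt
Bcl2l1, chr2:152831729-152831978, - strand: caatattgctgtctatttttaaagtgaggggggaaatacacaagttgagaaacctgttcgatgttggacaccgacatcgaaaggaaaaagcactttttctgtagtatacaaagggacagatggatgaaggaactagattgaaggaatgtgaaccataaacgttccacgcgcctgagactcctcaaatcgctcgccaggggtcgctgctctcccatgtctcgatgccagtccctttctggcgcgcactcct
Motifs were searched on both strands, and the matches in the printed stretches do not overlap each other. The FOXO site, bound by the forkhead factors that are known to drive *Bcl2l11*, was searched as GTAAACA. The GC box, bound by SP1 and its relatives in many promoters without a TATA box, was searched as GGGCGG. The E-box, bound by basic helix-loop-helix factors such as MYC, was searched as CACGTG, and the TATA box, which positions the basal transcription machinery, as TATAAA. The ATF4-CHOP composite site (TGATGCAA), the cyclic AMP response element (TGACGTCA) and the p53 half-site, by its consensus, were searched as well. The *Bcl2l11* stretch held 1 FOXO match, which began 227 bases before the start site, and 3 GC boxes. The *Bid* stretch held 3 GC boxes, and the *Bcl2l1* stretch held no match to any of the 7 motifs. Of all 32851 RefSeq promoters of this length, 3.17% held the FOXO letters, 32.7% a GC box, 0.791% the ATF4-CHOP composite, 1.55% the cyclic AMP response element, 6.02% the E-box, 12.4% the TATA letters and 7.13% the p53 half-site. GC content was 72% for *Bcl2l11*, 63.6% for *Bid* and 47.6% for *Bcl2l1*, against a median of 52.4% over all promoters. A match is a description of letters only, and none of these libraries measured binding. The promoter table held 15 start sites for 9 of the 10 members. The start sites not printed include another start of *Bcl2l11*, which held no FOXO letters, and further starts of *Bcl2l1*. Among the start sites not printed, FOXO letters occurred at 1 start of *Bbc3* and a p53 half-site at the *Bax* start alone. High GC content was not particular to the raised members. The stretch of *Bcl2*, which was not called, had a GC content of 74.8% and 7 GC boxes.

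Library totals ranged from 21040536 to 23986458 counts. *Uqcrq*, the targeted gene, fell from 94.1 ± 13.3 CPM in control to 21.3 ± 4.45 CPM in mutant progenitors. The summed level of 8 nephron progenitor markers was 2055 to 2520 CPM in control and 2039 to 2488 CPM in mutant libraries, and by edgeR 0 of the 8 passed the adjusted threshold, against 3 at an unadjusted p under 0.05 and 0 by DESeq2. Among the 7 ureteric bud markers *Ret* and *Wnt9b* were near 0, with at most 13 and 7 counts in any library. The whole list summed to 46.5 to 66.8 CPM in control and 28.4 to 68.6 CPM in mutant libraries. Much of that sum was *Hoxb7*, with means of 40.5 CPM in control and 29.3 CPM in mutant progenitors. Stromal markers had a summed level of 100.5 to 187 CPM in control and 247 to 630 CPM in mutant libraries, and 5 of 8 were higher in the mutant. Myeloid markers summed to 0.341 to 10.7 CPM in control and 6.61 to 120 CPM in mutant libraries, with 1 of 6 called by edgeR, 5 by DESeq2 and 6 at an unadjusted p under 0.05 by edgeR, and mutant 74 lay within the control range. No marker of either list was at 0 in all libraries. The Y-linked genes *Ddx3y*, *Eif2s3y*, *Kdm5d* and *Uty* together gave 263 to 328 CPM in 3 libraries (control 72, control 73 and mutant 79) and at most 0.177 CPM in the other 6. In sorted bulk RNA, fewer cells of a type and less RNA per cell cannot be told apart. The paper reports *Fgf8*, *Lef1*, *Wnt4*, *Lhx1* and *Jag1*, genes of nascent nephrons, as lower in the mutant sorted cells. It does not fully exclude that differentiating control cells with low eGFP were sorted. No list of such markers was summed here, and the part of differentiating cells in any difference was not tested. Over all 14990 genes tested, 2225 genes (14.8%) had an adjusted p under 0.05, of which 1172 (7.82% of those tested) were higher and 1053 (7.02%) lower in the mutant, by edgeR's quasi-likelihood test with Benjamini-Hochberg adjustment, which gives every adjusted p in the text unless another tool is named. For 2283 genes (15.2%) the CPM of the genotypes did not overlap.

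Of the 10 members, 3 were called, 2 higher and 1 lower, and 2 did not overlap between the genotypes. These counts stand beside 14.8%, 7.82%, 7.02% and 15.2% of all genes tested, and 10 genes are too few to set them apart from those shares. The median log2 fold change, mutant against control, was 0.09 over the members and −0.01 over all genes tested. It was −0.11 for the 3 pro-survival members, 0.00 for the 2 effectors and 0.35 for the 5 BH3-only members.

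**Figure D1:**
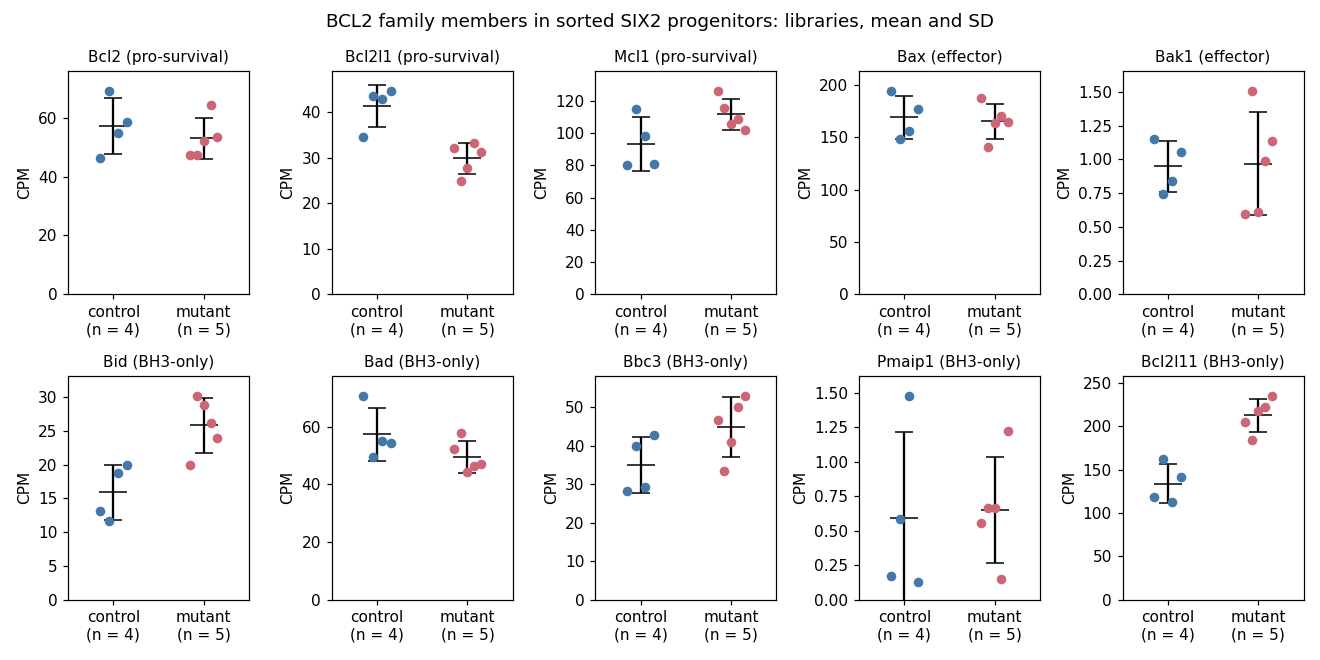
Level of each of the 10 members in CPM (vertical axis from 0) in control and mutant SIX2 progenitors, with 1 point per library and the mean and SD as a black bar. The mutant points of *Bcl2l11* lie above and those of *Bcl2l1* below every control point, and those of *Bid* meet the control points at 20.0 CPM.

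*Bcl2l11* encodes BIM, a BH3-only protein that can bind each of the pro-survival proteins and can activate BAX directly. Its gene lies at chr2:128126038-128162547 (mm10, + strand). The 4 control libraries had 119, 162, 113 and 141 CPM, and the 5 mutant libraries 205, 184, 218, 223 and 235 CPM. Every mutant library was above the highest control library, control 72. The mean rose from 134 ± 22.4 CPM to 213 ± 19.3 CPM, a log2 fold change of 0.67 (SE 0.13, 95% interval 0.39 to 0.95, adjusted p = 0.00571), which is 1.59-fold. Leaving out any single library gave log2 fold changes of 0.60 to 0.77, all of them called. Mutant 74, whose myeloid marker sum lay within the control range, had 205 CPM of *Bcl2l11*, a value from 1 library only. Stromal marker sums did not overlap between the genotypes. The part of myeloid or stromal cells in the *Bcl2l11* difference was not tested. In the 6 libraries without Y-linked expression (2 control, 4 mutant) the log2 fold change was 0.67 with an adjusted p of 0.0864.

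*Bid* encodes the BH3-only protein that links death receptors to mitochondria, since caspase 8 cleaves it to its active form. It lies at chr6:120891930-120916853 (mm10, − strand). Control libraries had 13.1, 11.7, 18.8 and 20.0 CPM, and mutant libraries 20.0, 30.2, 28.9, 26.2 and 23.96 CPM. Mutant 74 was level with control 76, and the other 4 mutant libraries were above all controls. The myeloid marker sum of mutant 74 (6.61 CPM) lay within the control range, whereas its stromal sum did not. The part of myeloid or stromal cells in the *Bid* difference was not tested. The mean rose from 15.9 ± 4.11 to 25.8 ± 4.05 CPM, a log2 fold change of 0.70 (SE 0.19, 95% interval 0.29 to 1.11, adjusted p = 0.0284), or 1.62-fold. The call was lost without control 71, control 72, mutant 75, mutant 77 or mutant 78, with log2 fold changes of 0.58 to 0.84 over all single libraries left out. It was also lost with Y-linked expression as a covariate (0.67, adjusted p = 0.0520) and in the 6 libraries without Y-linked expression (0.66, adjusted p = 0.222). *Bid* shares 628 of its 3550 exonic bases with *Bcl2l13* on the opposite strand, and the libraries carry no strand information, so reads in the shared bases cannot be assigned to either gene. The neighbour itself stood at 35.1 ± 4.87 CPM in control and 36.1 ± 5.82 CPM in mutant libraries (log2 fold change 0.04, SE 0.15, adjusted p = 0.878).

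*Bbc3* encodes PUMA, a BH3-only protein and a known p53 target that binds all pro-survival proteins. Control libraries had 28.2, 39.8, 29.4 and 42.7 CPM, and mutant libraries 46.7, 33.4, 40.9, 50.2 and 52.8 CPM. The genotypes overlapped, with mutant 75 and mutant 77 below control 76. The log2 fold change was 0.35 (SE 0.17, 95% interval −0.02 to 0.72, adjusted p = 0.177), so that neither no difference nor a rise to 1.65-fold lay outside the interval.

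*Bad* encodes the BH3-only protein that growth factor signalling holds inactive through phosphorylation. It had 70.6, 49.5, 55.1 and 54.5 CPM in control and 52.4, 58.0, 44.2, 46.4 and 47.3 CPM in mutant libraries. The genotypes overlapped, with control 71 the highest of all 9 libraries. The log2 fold change was −0.21 (SE 0.13, 95% interval −0.50 to 0.08, adjusted p = 0.309). Of its 2558 exonic bases, 524 are shared with *Gpr137* on the opposite strand.

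*Pmaip1* encodes NOXA, a BH3-only protein that preferentially binds MCL1. It was counted 3 to 35 times per control library and 3 to 27 times per mutant library, at 0.127 to 1.48 and 0.148 to 1.23 CPM. With few counts and a wide spread between libraries it was not called, and the interval of the log2 fold change ran from −1.37 to 1.66.

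*Bcl2l1* encodes BCL-XL, a pro-survival protein of the outer mitochondrial membrane. It lies at chr2:152780668-152831728 (mm10, − strand). Control libraries had 34.5, 43.5, 43.0 and 44.7 CPM, and mutant libraries 32.1, 25.0, 27.8, 33.2 and 31.3 CPM. Every mutant library was below the lowest control library, control 71, which stood apart from the other 3 controls. The mean went from 41.4 ± 4.67 to 29.9 ± 3.39 CPM, a log2 fold change of −0.47 (SE 0.13, 95% interval −0.76 to −0.18, adjusted p = 0.0334). The call was lost without control 72, control 73, control 76, mutant 75, mutant 77 or mutant 79, over log2 fold changes of −0.55 to −0.41, and kept without control 71, mutant 74 or mutant 78. With Y-linked expression as a covariate the value was −0.44 (adjusted p = 0.0589), and in the 6 libraries without Y-linked expression −0.43 (adjusted p = 0.304).

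*Mcl1* encodes a pro-survival protein with a short half-life. Control libraries had 80.0, 115, 98.0 and 80.6 CPM, and mutant libraries 126, 116, 105, 109 and 102 CPM. All mutant libraries were above 3 of the 4 controls, and control 72 lay among them. The log2 fold change was 0.26 (SE 0.13, 95% interval −0.02 to 0.54, adjusted p = 0.194), and it passed the test with 1 surrogate variable as a covariate (adjusted p = 0.0338).

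*Bcl2*, the founding pro-survival member, had 46.2, 69.0, 54.9 and 58.4 CPM in control and 47.3, 47.4, 52.2, 64.2 and 53.5 CPM in mutant libraries. The lowest and the highest value were both controls. The log2 fold change was −0.11 (SE 0.14, 95% interval −0.41 to 0.19, adjusted p = 0.63), and a fall below 0.751 of the control level lay outside the interval. An antisense gene, *D630008O14Rik*, shares 558 of its 9157 exonic bases.

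The effectors did not pass the test: by edgeR 0 of 2 were called, also at an unadjusted p under 0.05 and by DESeq2. *Bax* had 194, 148, 156 and 177 CPM in control and 187, 140, 164, 170 and 165 CPM in mutant libraries, with a log2 fold change of −0.03 (SE 0.12, 95% interval −0.29 to 0.23, adjusted p = 0.89). The lowest mutant library, 75, and the highest control library, 71, bounded a range in which the genotypes mixed. Of its 1576 exonic bases, 192 are shared with *Gm45808* on the same strand. *Bak1*, which forms the same kind of pore, was counted 12 to 34 times per library, at 0.740 to 1.15 CPM in control and 0.597 to 1.51 CPM in mutant progenitors. Its interval ran from −0.84 to 0.90 on the log2 scale, and 614 of its 2407 exonic bases are shared with *Ggnbp1* on the opposite strand.

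**Figure D2:**
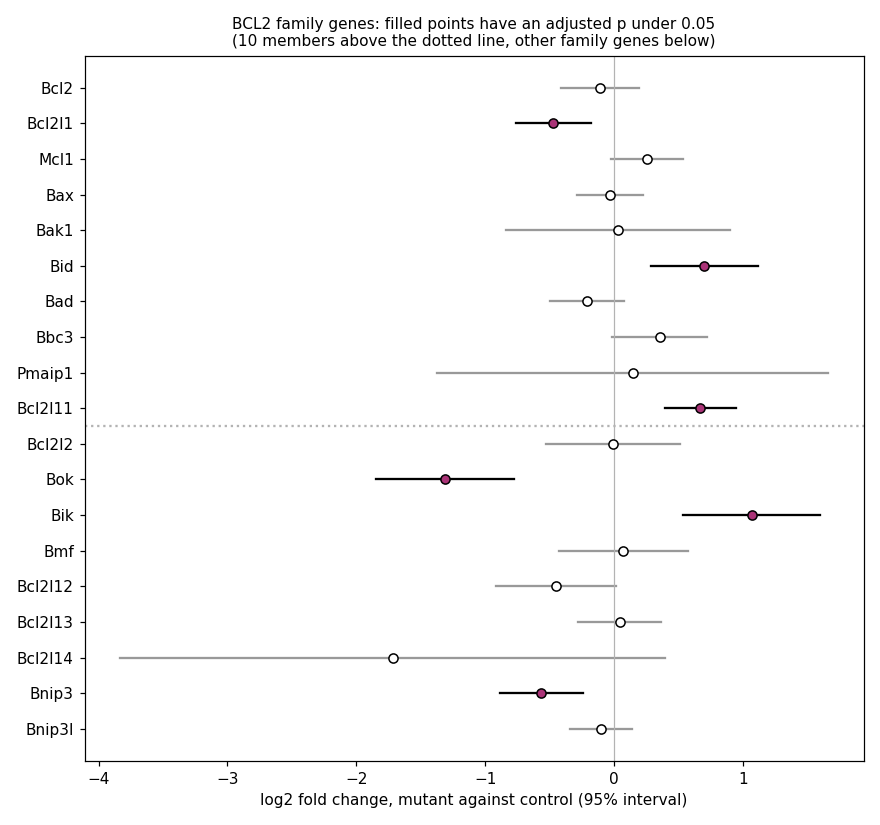
Log2 fold change, mutant against control (horizontal axis), with its 95% interval for the 10 members above the dotted line and for 9 other family genes below it. Filled points had an adjusted p under 0.05; *Hrk* and *Bcl2a1d* are not drawn because their control libraries were at or near 0.

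Levels of different genes were compared as CPM per 1000 bases of the deposited gene length. In control progenitors *Bax* stood at 194 ± 23.9, above *Bad* at 39.6 ± 6.30 in 4 of 4 libraries. *Mcl1* at 26.8 ± 4.76 and *Bcl2l11* at 26.6 ± 4.45 followed, and *Mcl1* was above *Bcl2l11* in 2 of 4 libraries, so these neighbours did not differ beyond their spread. Next came *Bbc3* at 19.3 ± 4.04, *Bcl2l1* at 16.1 ± 1.82, *Bcl2* at 7.95 ± 1.31 and *Bid* at 6.58 ± 1.70, of which *Bcl2* and *Bid* each led in 2 of 4 libraries and *Bbc3* was above *Bcl2l1* in 3 of 4. *Bak1* at 0.397 ± 0.0790 and *Pmaip1* at 0.223 ± 0.236 were the lowest. Between *Bax* and *Bak1*, the message in these cells was thus nearly all *Bax*, in both genotypes. The effector-like *Bok*, which is outside the 10 members, stood at 12.9 in control and 5.21 in mutant progenitors on this scale.

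In mutant progenitors the order of these per-length levels differed in 2 places. *Bcl2l11* at 42.2 ± 3.83 was next after *Bax* and above *Bad* at 34.2 ± 3.81 in 4 of 5 libraries. *Bid* at 10.7 ± 1.68 was above *Bcl2* at 7.36 ± 0.959 in 5 of 5 libraries, and *Bcl2l1* at 11.6 ± 1.32 was above *Bid* in 3 of 5. The remaining order, from *Mcl1* at 32.0 ± 2.75 through *Bbc3* at 24.7 ± 4.29 to *Bak1* at 0.405 ± 0.160 and *Pmaip1* at 0.246 ± 0.146, was as in the control.

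**Figure D3:**
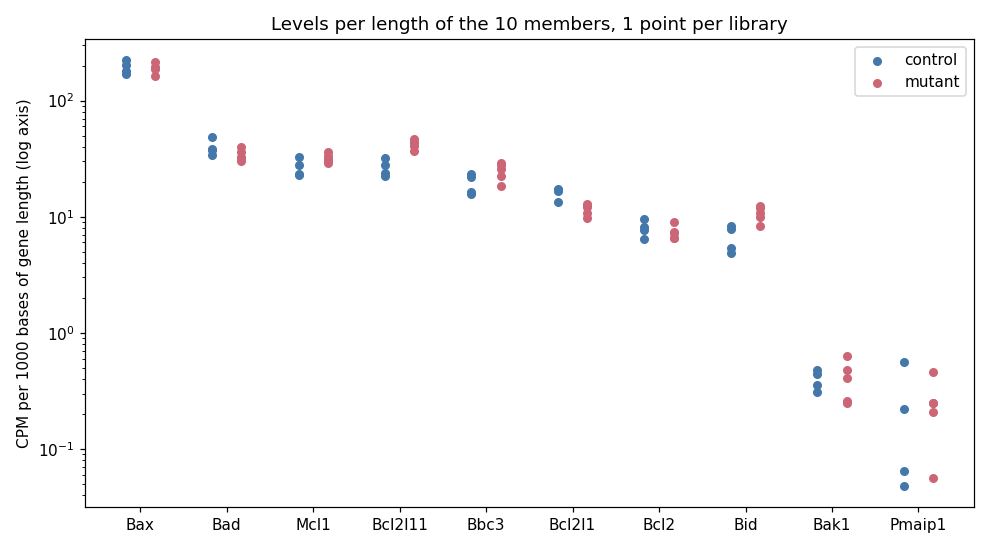
Levels of the 10 members as CPM per 1000 bases of gene length (log axis), 1 point per library, in the order of the control means. *Bax* is highest in both genotypes, *Bak1* and *Pmaip1* are lowest, and *Bcl2l11* and *Bid* have their mutant points shifted up.

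The composition of each class was described from the same per-length levels, without a test, since *Bcl2l11*, *Bid* and *Bcl2l1* are already known to differ. The 3 pro-survival members summed to 50.9 ± 6.99 in control and 51.0 ± 3.01 in mutant progenitors. Within that sum *Mcl1* made up 47.5% to 55.4% in control and 58.8% to 67.1% in mutant libraries, and *Bcl2l1* 28.5% to 35.8% and 19.7% to 25.0%. The summed message of the class was therefore at a like level in both genotypes while its make-up was not. The 5 BH3-only members summed to 84.9 to 97.5 in control and 108 to 119 in mutant libraries. *Bcl2l11* made up 25.3% to 34.5% of that sum in control and 34.0% to 39.8% in mutant libraries, with mutant 75 below control 72.

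The ratio of *Bcl2l11* to *Bcl2l1* per length was 1.76, 1.90, 1.34 and 1.61 in the control libraries and 3.25, 3.75, 3.99, 3.42 and 3.82 in the mutant libraries. No mutant library was near the control range, as follows from the direction of the 2 genes. The ratio of the summed BH3-only to the summed pro-survival levels did overlap, at 1.57 to 2.18 in control and 2.01 to 2.43 in mutant libraries. The ratio of *Bax* to *Bcl2* was 17.8 to 34.8 in control and 21.9 to 32.7 in mutant libraries, the mutant range lying inside that of the controls.

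**Figure D4:**
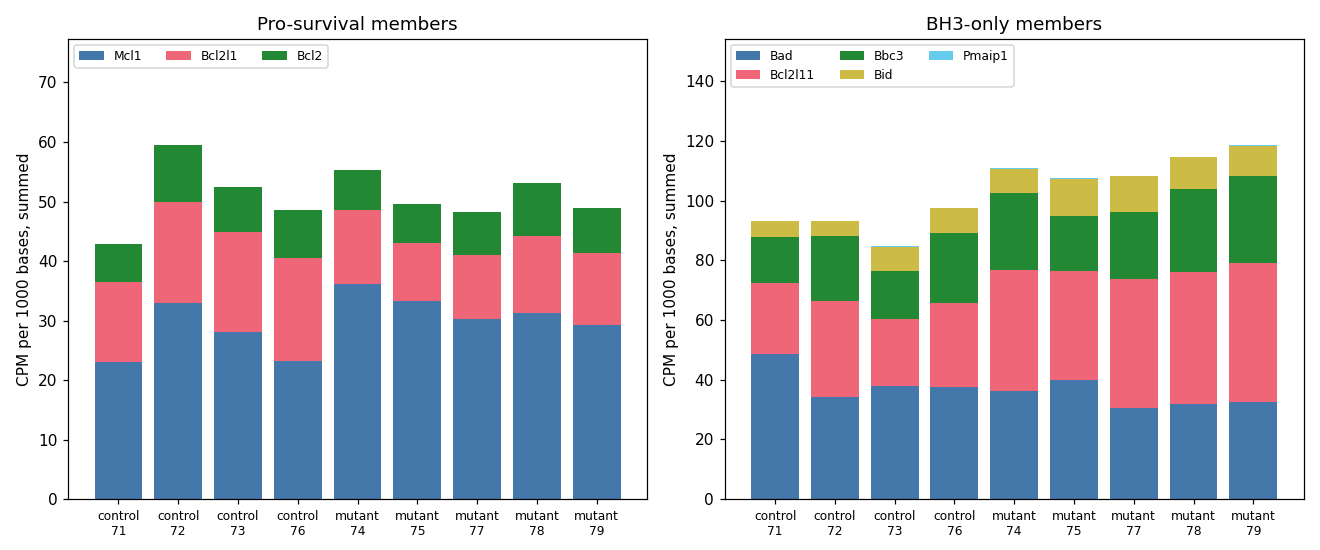
Stacked levels of the pro-survival members (left) and the BH3-only members (right) in each library, in CPM per 1000 bases of gene length from 0. Pro-survival sums mix between the genotypes, at 42.8 to 59.5 in control and 48.3 to 55.2 in mutant libraries, and BH3-only sums are higher in each mutant library.

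Of 15 other BCL2 family genes, 11 were tested, and 5 were called, beside 14.8% of all genes tested. *Bik*, *Hrk* and *Bcl2a1d* were higher, *Bok* and *Bnip3* lower in the mutant. *Hrk* and *Bcl2a1d* passed the filter on low counts only through their mutant libraries. A fall could therefore not have been called for them, and their calls are not support for a rise. *Bok*, a further effector-like protein, had 17.4, 24.7, 20.7 and 13.2 CPM in control and 8.35, 8.46, 4.69, 10.8 and 5.94 CPM in mutant libraries. All mutant libraries were below all controls, and the log2 fold change was −1.31 (SE 0.25, adjusted p = 0.00553). *Bik*, a BH3-only gene whose core is printed above, had 2.85, 4.75, 4.59 and 5.61 CPM in control and 7.42, 11.1, 10.3, 10.9 and 7.08 CPM in mutant libraries, again without overlap (1.07, SE 0.25, adjusted p = 0.0133). Both calls held when any single library was left out. In the 6 libraries without Y-linked expression the log2 fold change was −0.93 for *Bok* (adjusted p = 0.186) and 1.22 for *Bik* (adjusted p = 0.132).

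*Hrk*, a BH3-only gene best known from neurons, had 0, 4, 1 and 0 counts in control and 11, 15, 19, 22 and 29 counts in mutant libraries. Pooled over libraries the ratio was 17.2, with a 95% interval of 7.11 to 54.1 that covers counting error only (adjusted p = 0.00598). Mutant 74, with a myeloid sum within and a stromal sum above the control range, had 11 *Hrk* counts, the fewest of the mutant libraries. What part either cell type had in the *Hrk* counts was not tested. *Bcl2a1d*, a pro-survival gene known from blood cells, had 0 to 1 counts in control and 9 to 24 in mutant libraries (pooled ratio 39.8, interval 10.7 to 334, adjusted p = 0.00216). It belongs to a set of nearly identical copies between which reads can be split, so its identity is uncertain, and the copy *Bcl2a1a*, which did not pass the filter, had 0 to 1 counts in control and 1 to 17 in mutant libraries. The myeloid marker sums given above moved with these counts, and their part was not tested.

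*Bnip3*, a hypoxia-inducible gene of mitophagy, had 592, 411, 367 and 545 CPM in control and 330, 381, 275, 335 and 299 CPM in mutant libraries. Only mutant 75 was above a control, and the log2 fold change was −0.56 (SE 0.15, adjusted p = 0.0257). The call was lost without control 71, control 76, mutant 77, mutant 78 or mutant 79. Its relative *Bnip3l* was 884 ± 102 and 822 ± 55.0 CPM (−0.10, SE 0.11, adjusted p = 0.563). The pro-survival *Bcl2l2* was 10.01 ± 0.188 and 9.95 ± 3.61 CPM (−0.01, SE 0.24), and the BH3-only *Bmf* 22.6 ± 6.70 and 23.8 ± 6.35 CPM (0.07, SE 0.23). *Bcl2l12* (−0.45, SE 0.22, adjusted p = 0.174) and *Bcl2l14*, with 0 to 21 counts per library, were not called either. *Bcl2l10*, *Bcl2a1b* and *Bcl2l15* had at most 7 counts in any library and were not tested.

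The counts of the other pathway lists stand beside the 14.8% of all genes tested that were called. Of 9 genes of the apoptosome and of mitochondrial death effectors 1 was called, *Htra2*, a protease released from mitochondria, which was lower in the mutant (−0.42, SE 0.13, adjusted p = 0.0421). *Cycs*, which encodes cytochrome c, was 128 ± 20.3 and 142 ± 31.7 CPM (adjusted p = 0.581), and *Apaf1*, the apoptosome scaffold, 16.8 ± 2.06 and 18.6 ± 2.75 CPM (adjusted p = 0.564). Of 6 caspases 1 was called: *Casp8*, the initiator caspase that cleaves BID, had 27.1, 22.6, 33.6 and 30.3 CPM in control and 17.9, 19.0, 19.7, 17.7 and 14.6 CPM in mutant libraries. All mutant libraries were below all controls (−0.67, SE 0.15, adjusted p = 0.0126), and the call was lost without control 73. The apoptosome caspase *Casp9* was 31.0 ± 6.16 and 27.5 ± 3.34 CPM (adjusted p = 0.495).

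Of 6 inhibitors of apoptosis and of caspases 2 were called, both lower: *Birc2* (−0.36, SE 0.10, adjusted p = 0.0353) and *Birc3* (−0.69, SE 0.21, adjusted p = 0.0434), which encode ubiquitin ligases of the tumour necrosis factor receptor complex. *Htra2*, *Birc2* and *Birc3* each lost the call when single libraries were left out: *Htra2* without any library but control 76 or mutant 74, *Birc2* without any but control 71, mutant 74 or mutant 79, and *Birc3* without any but mutant 74 or mutant 75. *Xiap*, the direct caspase inhibitor, was 34.2 ± 3.31 and 37.1 ± 5.50 CPM (adjusted p = 0.602). Of 9 death receptor genes 7 were tested and 1 was called, *Tnfrsf10b*, the TRAIL receptor, with 6.35 to 7.67 CPM in control and 11.1 to 14.7 CPM in mutant libraries (0.90, SE 0.17, adjusted p = 0.00571).

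Of 12 known transcriptional regulators of the family 10 were tested, and 5 were called, all higher in the mutant. *Ddit3*, which encodes the stress-induced factor CHOP, had 31.7 to 57.5 CPM in control and 130 to 166 CPM in mutant libraries (1.67, SE 0.17, adjusted p = 0.000271). *Atf4*, the effector of the integrated stress response, had 168 to 207 CPM in control and 295 to 580 CPM in mutant libraries (1.24, SE 0.17, adjusted p = 0.000857). The FOXO factors *Foxo3* (0.55, SE 0.15, adjusted p = 0.0272) and *Foxo1* (0.52, SE 0.14, adjusted p = 0.0295) and the p53 target and inhibitor *Mdm2* (0.34, SE 0.10, adjusted p = 0.0359) did not overlap between the genotypes either. These last calls were lost when some single libraries were left out. *Foxo3* lost its call without control 71, control 73, mutant 78 or mutant 79. *Foxo1* lost it without control 71, control 73, control 76 or mutant 79. *Mdm2* lost it without control 71, control 72, control 73, mutant 75, mutant 77 or mutant 79. Over all single libraries left out, the log2 fold changes were 0.45 to 0.61 for *Foxo3*, 0.42 to 0.62 for *Foxo1* and 0.31 to 0.38 for *Mdm2*. *Trp53* itself had 266 to 311 CPM in control and 297 to 343 CPM in mutant libraries (0.12, SE 0.10, adjusted p = 0.444). Of 11 regulators of the proteins, among them kinases and ubiquitin ligases, 1 was called: *Pim3*, a kinase known to phosphorylate BAD, with 48.1 to 69.6 CPM in control and 88.6 to 164 CPM in mutant libraries (1.12, SE 0.19, adjusted p = 0.00325).

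**Figure D5:**
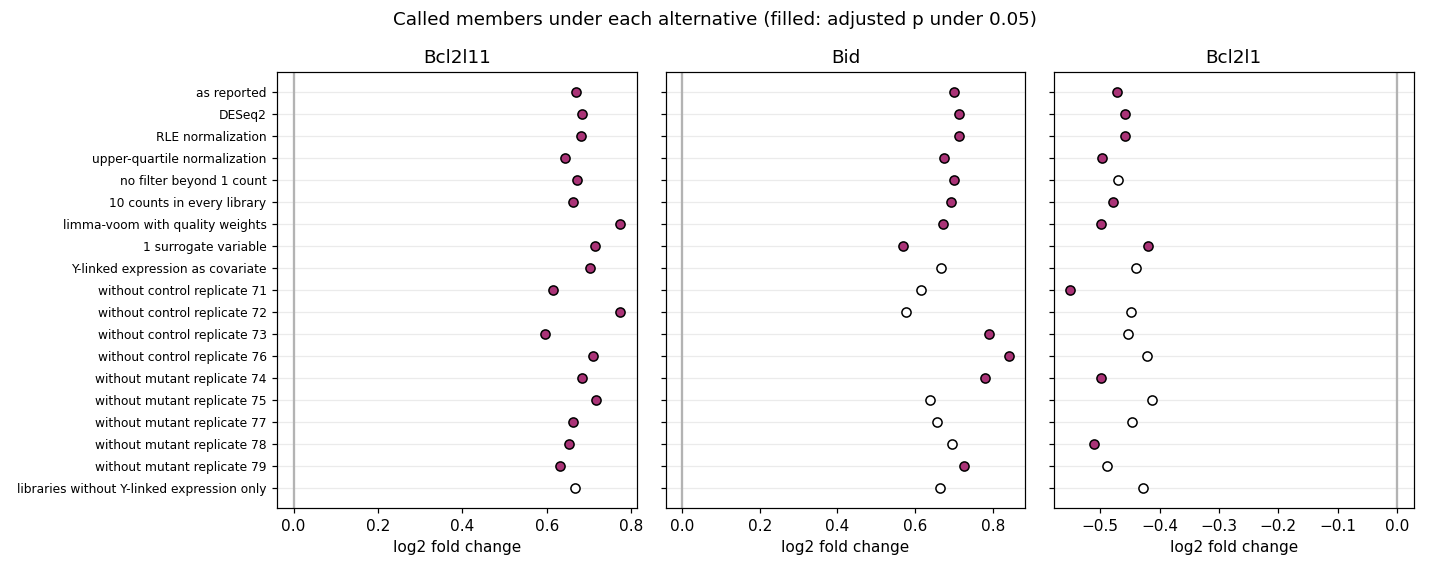
Log2 fold change of the 3 called members (horizontal axis) under the reported analysis and 18 alternatives (rows), with filled points for an adjusted p under 0.05. Points stay on 1 side of 0 in each panel; *Bcl2l11* is filled in each row but the 6 libraries without Y-linked expression, and *Bid* and *Bcl2l1* lose the call in 7 and 9 rows.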

How the data were processed

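Total RNA of sorted cells was amplified as cDNA with an ultra-low-input kit, poly(A) selected and sequenced without strand information. The authors deposited raw read counts per gene, 1 column per library, with gene lengths. Per the submitters' processing notes STAR, DESeq2 and build mm10 were used; the counter, annotation and versions are not given in the sources used here. The authors' own FPKM, mean, fold change and p-value columns were not used. Genes were matched by symbol. Counts were filtered (filterByExpr), TMM-normalised and tested with edgeR 4.0.16 (R 4.3.3) by the quasi-likelihood test, 5 mutant against 4 control libraries, with Benjamini-Hochberg adjustment over 14990 genes at 0.05. CPM is per 1000000 of the normalised library size. Alternatives used DESeq2 1.42.0, limma 3.58.1 (voom with quality weights per library, here limma-voom), sva 3.50.0, and other normalisations and filters. Further alternatives took Y-linked expression as a covariate or left each library out. The subset without Y-linked expression was added after seeing the data. The fit was run on simulated counts as a check of its code, with larger changes than those of the called members. Totals of 21040536 to 23986458 counts make counting error small beside the spread between libraries, except for genes with few counts. The members and all gene lists were chosen with earlier results of these data known. Named genes were the members, tested family genes, called genes of each list (at most 6) and *Uqcrq*; others named by value (*Bcl2a1a*, the untested family genes, *Cycs*, *Apaf1*, *Casp9*, *Xiap* and *Trp53*) were chosen after their values were seen.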

Additional observations from a re-analysis of the deposited data

Results flagged for a closer look

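In groups of 4 or 5 libraries, the lowest or highest value was compared with its nearest neighbour by Dixon's criterion for 66 groups of named genes; 5 stood apart and 3.3 would by chance. *Bcl2l1* in control 71 was low at 34.5 CPM, the next control being at 43.0 CPM, and without that library *Bcl2l1* was still called. *Bcl2l14* was at 0.0 CPM in control 76, the next at 0.724 CPM. *Birc3* was high in control 76 at 10.4 CPM, the next at 7.79 CPM, and without it the call was lost. *Ddit3* was highest in mutant 79 at 166 CPM, the next at 140 CPM, and *Foxo1* was high in control 72 at 43.4 CPM, the next at 33.7 CPM; neither call depended on that library.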

How the results depend on the processing

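Of the 3 called members, *Bcl2l11* kept its call in 17 of 18 alternatives, *Bid* in 11 and *Bcl2l1* in 9, each with its direction in all 18. Members called were 3 in the reported analysis, 1 with Y-linked expression as a covariate (1 higher, 0 lower) and 0 in the 6 libraries without Y-linked expression (0 higher, 0 lower; 3 at an unadjusted p under 0.05 by edgeR), an alternative with fewer samples, 2 of them control, and chosen after seeing the data. Leaving out single libraries gave 1 to 3 members called, 1 to 2 higher and 0 to 1 lower, and no filter beyond 1 count gave 0 lower. Over all genes 2225 were called, against 4858 with limma-voom with quality weights, 90 without the Y-linked libraries and 1046 to 3136 with single libraries left out. Of the genes not called, signs turned for *Bcl2l2* with DESeq2 (0.0039), RLE (0.0023), 1 surrogate variable (0.11) and the Y-linked covariate (0.044), for *Bax* (0.026) and *Pmaip1* (−0.61) with limma-voom, for *Bak1* with 1 surrogate variable (−0.12), and without the Y-linked libraries for *Bcl2* (0.0076) and *Bak1* (−0.26). With single libraries left out they ranged from −0.090 to 0.042 for *Bax*, −0.21 to 1.12 for *Pmaip1*, −0.05 to 0.13 for *Bcl2l13*, −0.18 to 0.17 for *Bak1*, −0.20 to 0.10 for *Bcl2l2* and −0.063 to 0.24 for *Bmf*. The causes were not tested. *Mcl1* was called with 1 surrogate variable (adjusted p = 0.0338) and *Bbc3* with limma-voom (adjusted p = 0.0392). In the 6 libraries without Y-linked expression, *Ddit3* and *Uqcrq* alone among the named genes called kept the call. By edgeR and by DESeq2, 1 and 4 death receptor genes, 1 and 5 myeloid markers and 0 and 2 ureteric bud markers were called (3 ureteric bud markers at an unadjusted p under 0.05 by edgeR). No paired analysis was possible because the labels do not say which animals or litters the libraries came from.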
